A study of Mus musculus with 36 samples.

Results

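Plasma cells that carried both a Ccnd1 and an Ikk2ca transgene were compared with control plasma cells of the same cohort, over all genes measured. The comparison took the 6 libraries labelled Ccnd1-Ikk2ca and the 4 labelled Control(D), 10 of the 36 libraries of a series that models subgroups of multiple myeloma, the cancer of plasma cells, in mice. All came from C57/BL6 mice, and each library was made from 2000 cells sorted from bone marrow for the surface proteins CD138 and TACI and, where the mice carried one, for a reporter. Ikk2ca(D) (4 libraries, that transgene alone) and Ccnd1 (4 libraries, that transgene alone) belong to the same cohort. MMSET-Ikk2ca (6 libraries) and Control(M) (4 libraries) of the second cohort are used near the end. Control(M) is also set beside the immunoglobulin shares. The groups MMSET and Ikk2ca(M) of that cohort (4 libraries each) are used for chromosome 5 only. The labels used here give no age, no promoter or recombinase behind the transgenes and no link between libraries and mice, so the spread behind each p-value is that between samples and may be technical. Nor do they spell out "ca", which in the name of this kinase commonly stands for a constitutively active form.

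Cyclin D1, the product of Ccnd1, binds the kinases CDK4 and CDK6, which phosphorylate the retinoblastoma protein and so open the way into S phase; a translocation switches the gene on in a subgroup of human myelomas. IKK2, the product of Ikbkb, phosphorylates the inhibitors that hold NF-kB in the cytoplasm, and NF-kB then switches on survival genes, adhesion molecules and its own inhibitors. Plasma cells have shut down most of the B cell programme, including the antigen receptor, MHC class II and the factor PAX5, in favour of a secretory programme under BLIMP1, IRF4 and XBP1.

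The libraries held 58.4 to 79.2 M estimated reads in Ccnd1-Ikk2ca and 59.4 to 74.8 M in Control(D). Reads from genes other than immunoglobulin genes came to 21.5 to 28.3 M in Ccnd1-Ikk2ca and 21.4 to 27.2 M in Control(D). Levels are reads of a gene per 1 M reads of the library after scaling (CPM), and they are not corrected for gene length. Of the 6 Ccnd1-Ikk2ca libraries the lowest, the highest and the median are given, and of Control(D) all 4 in the order of their numbers. Differences are log2 fold changes ± standard error (SE) of Ccnd1-Ikk2ca over Control(D) from edgeR's quasi-likelihood test, fitted over the 18 libraries of the cohort. Every adjusted p in the text is from that test with Benjamini-Hochberg adjustment over all genes tested, and "rose" and "fell" are used of an adjusted p under 0.05. On the first principal component of the 1000 most variable genes, which held 52.2% of their variance, the 6 Ccnd1-Ikk2ca libraries lay between 27.5 and 52.1 and the 4 Control(D) libraries between -58.1 and -49.6.

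The transgene labels were checked first. Ccnd1 (chromosome 7, 144929931 to 144939925, GRCm38) stood at 275 to 964 CPM (median 678) in Ccnd1-Ikk2ca, against 1.26, 0.654, 0.596 and 0.798 CPM in Control(D). It was high in all 6 double transgenic libraries and near 0 in every control, a log2 fold change of 9.69 ± 0.72 (adjusted p = 2.97e-06). Ikbkb (chromosome 8, 22659212 to 22706589) stood at 41.4 to 58.6 CPM (median 52.7) in Ccnd1-Ikk2ca, against 24.5, 37.8, 25.6 and 19.1 CPM in Control(D). The groups did not overlap, and Ikbkb rose by 0.96 ± 0.21 on the log2 scale (adjusted p = 0.00781), far less than Ccnd1. Of the 2 sort markers, Sdc1, which encodes CD138, stood at 283 to 541 CPM (median 479.6) in Ccnd1-Ikk2ca and at 386, 323, 393 and 359 CPM in Control(D), overlapping groups (adjusted p = 0.313). Tnfrsf13b, which encodes TACI, a receptor for the survival factors BAFF and APRIL, stood at 145 to 237 CPM (median 218) in Ccnd1-Ikk2ca, all below the 287, 316, 329.9 and 289 CPM of Control(D). It fell by 0.57 on the log2 scale (adjusted p = 0.029), a call that was lost without Ccnd1-Ikk2ca replicate 3 (adjusted p = 0.061) and without any 1 control (0.050 to 0.078). Both sort markers were therefore present in every library. Xist, an RNA of female cells, ran from 0.57 to 115 CPM in Ccnd1-Ikk2ca and was over 10 CPM in 3 libraries. In Control(D) it ran from 0.099 to 83.1 CPM and was over 10 CPM in 1 library. Each group thus held samples of both sexes, in unlike shares.

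Of 15323 genes tested, 1708 passed the threshold, 11.1% of all. In Ccnd1-Ikk2ca 893 genes rose (5.83%) and 815 fell (5.32%). At least a 2-fold change was seen in 508 of the rises and 562 of the falls, and at least an 8-fold change in 229 rises and 228 falls. The 2 groups did not overlap in 1280 of the genes called, and did not overlap in 12.8% of all genes tested. The median log2 fold change over all tested genes was 0.021. The count rested partly on the controls. It was 984 without Control(D) replicate 2 and 1124 without replicate 1.

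The largest rises were of genes that were close to 0 in control plasma cells. Elf3, an epithelial ETS factor, stood at 11.1 to 74.6 CPM (median 26.4) in Ccnd1-Ikk2ca, against 0, 0, 0 and 0.0479 CPM in Control(D), where 3 reads were found in all. Ncan, which encodes the brain proteoglycan neurocan, stood at 133 to 456 CPM (median 209.9) in Ccnd1-Ikk2ca, against 0.137, 0.954, 0.0993 and 1.197 CPM in Control(D) (log2 fold change 8.66 ± 1.18). Csn3, which encodes the milk protein kappa-casein, stood at 278 to 630.4 CPM (median 474) in Ccnd1-Ikk2ca, against 5.69, 2.32, 1.36 and 2.97 CPM in Control(D) (7.25 ± 1.15). These genes are best known from other tissues, and all 6 double transgenic libraries expressed each of them above every control. Cp, which encodes the copper-carrying ferroxidase ceruloplasmin, was the most abundant of the set. It stood at 592 to 1757 CPM (median 944) in Ccnd1-Ikk2ca, against 29.5, 8.47, 18.8 and 17.04 CPM in Control(D) (log2 fold change 5.84 ± 0.86, adjusted p = 0.000889). Cyp2b10, a drug-metabolising cytochrome, stood at 333 to 820.3 CPM (median 479) in Ccnd1-Ikk2ca, against 10.1, 9.16, 21.4 and 19.2 CPM in Control(D). Ly6i, a member of the Ly6 family of membrane-anchored proteins, stood at 31.8 to 274 CPM (median 143) in Ccnd1-Ikk2ca and at 1.94, 3.35, 7.896 and 5 CPM in Control(D). Neither gene's groups overlapped, and their log2 fold changes were 5.10 ± 0.98 and 5.01 ± 0.83. A list of 12 such genes, drawn up from earlier results of these same libraries and so no independent evidence, had 12 rises, with a median log2 fold change of 5.93.

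**Figure D1:**
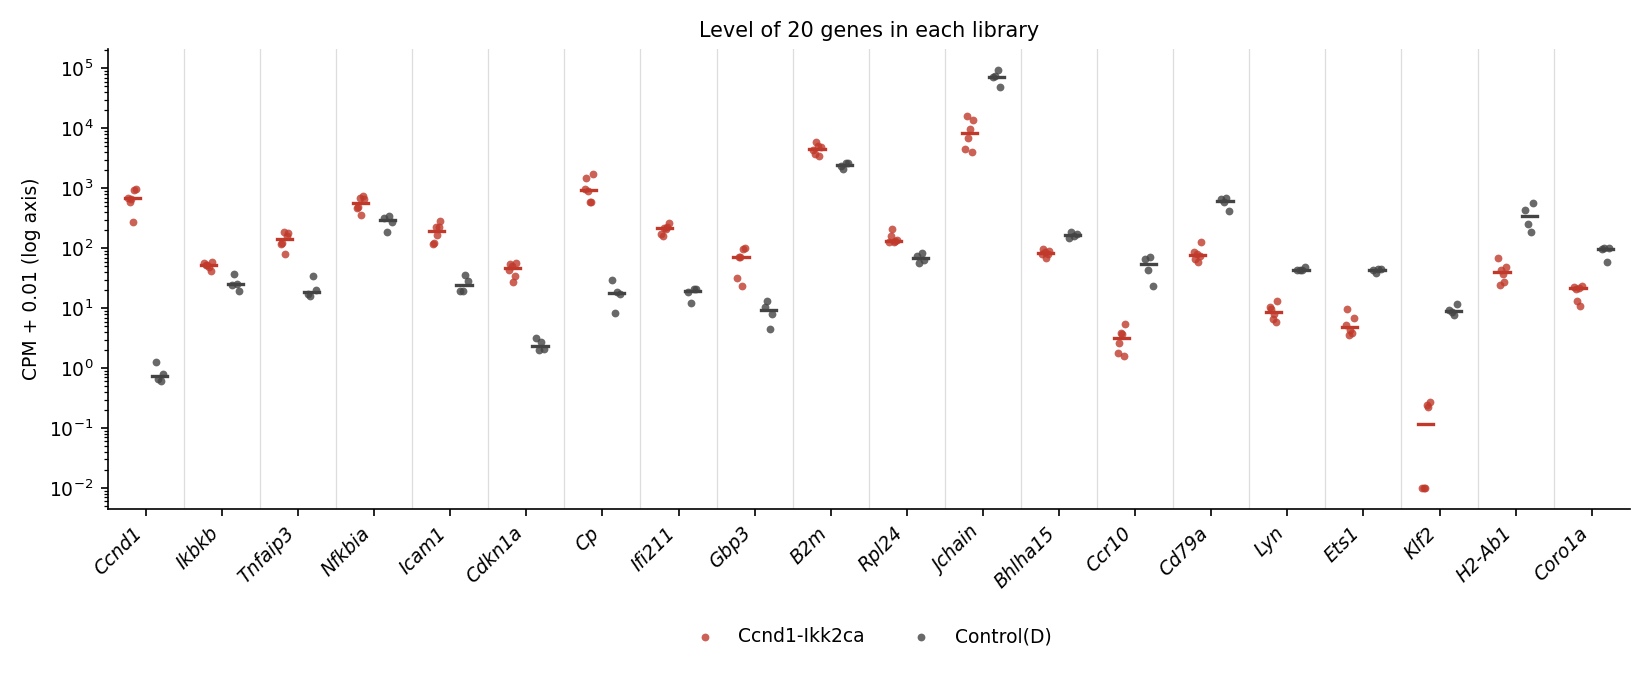
Levels of 20 genes in the 6 Ccnd1-Ikk2ca libraries (left in each pair) and the 4 Control(D) libraries (right), as CPM plus 0.01 on a log axis; each point is a library and each bar a group median. Ccnd1 spans 275 to 964 CPM in Ccnd1-Ikk2ca and 0.596 to 1.26 CPM in Control(D), while Klf2 spans 0 to 0.261 CPM in Ccnd1-Ikk2ca and 7.75 to 11.7 CPM in Control(D).

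Among 31 tested NF-kB subunits, inhibitors and kinases, 8 rose and 1 fell, with a median log2 fold change of 0.22. The rises count Ikbkb, the gene of the transgene, whose rise was set by the genotype. Of the 8 risen members, 4 encode brakes of the pathway, and 3 of these are given first. Tnfaip3, which encodes the deubiquitinase A20, stood at 81.5 to 190.4 CPM (median 140.4) in Ccnd1-Ikk2ca, against 17.6, 15.8, 34.6 and 20.1 CPM in Control(D). Nfkbia, which encodes the inhibitor IkBalpha, stood at 354 to 755 CPM (median 578) in Ccnd1-Ikk2ca, against 316, 189.9, 346 and 269 CPM in Control(D). Tnip1, a partner of A20, stood at 29.9 to 37.3 CPM (median 32.2) in Ccnd1-Ikk2ca, against 22.98, 17.9, 19.3 and 14.3 CPM in Control(D). No library of one group reached into the other in any of the 3 genes. The log2 fold changes were 2.69 ± 0.35 for Tnfaip3 (adjusted p = 0.000141), 1.02 ± 0.21 for Nfkbia (0.00424) and 0.81 ± 0.15 for Tnip1 (0.00207). The other risen members were Ikbkb itself, the inhibitor Nfkbie, the kinase Ikbke, the subunit Relb and the ubiquitin ligase Birc3; the last 4 are named because they were called. The member that fell, Tnip2, lies on chromosome 5, whose genes are described further on. It stood at 5.64 to 10.01 CPM (median 6.299) in Ccnd1-Ikk2ca, against 17.2, 15.3, 13.3 and 18.3 CPM in Control(D). Without Ccnd1-Ikk2ca replicate 1 or Control(D) replicate 3 the list had 2 falls.

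A short promoter window, from 250 bases before to 50 bases after the start site, was available from RefSeq (GRCm38.p6) for 6 of the 8 risen members. It held the NF-kB consensus motif of 10 letters, searched on both strands, in 4 of them (Nfkbia, Nfkbie, Tnfaip3 and Tnip1). The same motif lay in 11.8% of the 10343 windows of tested genes, in 13.7% of the windows of genes that rose and in 12.2% of those of genes that fell. The windows of the 3 brakes with the smallest p are printed 5′ to 3′ in the direction of the gene with every match in capitals, since these genes stand for the NF-kB response in the results. All 3 genes lie on the minus strand, at chr12:55492598-55492897, chr10:19015361-19015660 and chr11:54962891-54963190. Overlapping matches merge into 1 run of capitals.
Nfkbia: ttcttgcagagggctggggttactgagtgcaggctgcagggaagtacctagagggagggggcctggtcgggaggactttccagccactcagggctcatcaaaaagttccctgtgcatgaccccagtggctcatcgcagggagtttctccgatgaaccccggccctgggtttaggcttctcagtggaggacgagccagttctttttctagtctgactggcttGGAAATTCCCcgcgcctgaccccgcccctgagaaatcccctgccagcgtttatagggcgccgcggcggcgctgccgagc
Tnfaip3: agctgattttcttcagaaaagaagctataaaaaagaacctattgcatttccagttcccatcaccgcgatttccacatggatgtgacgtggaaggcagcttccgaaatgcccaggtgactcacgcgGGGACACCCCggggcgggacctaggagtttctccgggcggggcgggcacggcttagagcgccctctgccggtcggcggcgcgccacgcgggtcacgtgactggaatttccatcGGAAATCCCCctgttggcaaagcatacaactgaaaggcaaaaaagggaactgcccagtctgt
Tnip1: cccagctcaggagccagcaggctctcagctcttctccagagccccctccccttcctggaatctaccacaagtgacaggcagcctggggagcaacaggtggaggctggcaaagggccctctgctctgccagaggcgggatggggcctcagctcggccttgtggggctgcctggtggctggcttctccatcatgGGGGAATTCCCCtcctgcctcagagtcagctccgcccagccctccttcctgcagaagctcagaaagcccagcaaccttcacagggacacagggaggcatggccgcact
A match describes the letters in the window, and binding was not measured.

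Of 30 classical NF-kB target genes tested, 5 rose and 2 fell (median 0.13), so most of the list did not pass the test. Icam1, which encodes an adhesion ligand of leukocyte integrins, stood at 116 to 288 CPM (median 194) in Ccnd1-Ikk2ca, against 19.1, 19.7, 36.4 and 28.9 CPM in Control(D) (log2 fold change 2.87 ± 0.30, adjusted p = 2.05e-05). Bcl2l1, which encodes the survival protein BCL-XL, stood at 33.4 to 76.4 CPM (median 50.1) in Ccnd1-Ikk2ca, against 16.7, 20.2, 19.9 and 11.2 CPM in Control(D) (1.63 ± 0.35, adjusted p = 0.00597). Both genes were higher in all 6 double transgenic libraries than in any control. Leaving out 1 library left 2 rises without Control(D) replicate 1, 2 or 3, 3 rises without Ccnd1-Ikk2ca replicate 3 or 5, and 1 fall without Control(D) replicate 1 or 4.

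The interferon-linked genes did not move as 1 group. Among 22 genes of MHC class I and the immunoproteasome 13 rose and none fell (median 0.66); of 17 guanylate-binding and immunity-related GTPases, which act against microbes inside the cell, 8 rose and 1 fell (median 1.61); of 35 interferon-stimulated genes 8 rose and 1 fell, with a median of 0.037. B2m, the light chain shared by all class I molecules, stood at 3521 to 5962 CPM (median 4605) in Ccnd1-Ikk2ca, against 2389.7, 2068, 2638 and 2599.9 CPM in Control(D). It rose by 0.92 ± 0.17 on the log2 scale (adjusted p = 0.00185). Psme1 and Psme2 encode the activator of the immunoproteasome. Psme2 stood at 89.8 to 158 CPM (median 137) in Ccnd1-Ikk2ca, against 55.3, 54.2, 65.5 and 62.3 CPM in Control(D), and Psme1 at 69.4 to 120.5 CPM (median 100.3) in Ccnd1-Ikk2ca, against 48.5, 37.5, 66.6 and 53.4 CPM in Control(D). Tap1, a subunit of the peptide pump that loads class I, stood at 85.5 to 114 CPM (median 102) in Ccnd1-Ikk2ca, against 62.6, 50.1, 56.4 and 71.8 CPM in Control(D). In all 4 genes the groups were separate, and the fold changes were moderate, from 0.73 to 1.11 on the log2 scale. The GTPases moved further. Gbp3 stood at 23.9 to 99.9 CPM (median 72.01) in Ccnd1-Ikk2ca, against 10.6, 13.4, 4.54 and 8.12 CPM in Control(D) (2.85 ± 0.43), and Gbp7 at 21.8 to 111 CPM (median 59.7) in Ccnd1-Ikk2ca, against 10.6, 5.77, 8.92 and 9.18 CPM in Control(D) (2.94 ± 0.55). Igtp rose as well (1.79 ± 0.37), though its lowest double transgenic library, at 68.0 CPM, lay below the highest control, at 72.7 CPM. Gbp4 was 1 of few genes of chromosome 5 that rose, with 36.4 to 113 CPM (median 62.7) in Ccnd1-Ikk2ca, against 27.2, 20.8, 24.9 and 16.5 CPM in Control(D). Reads of these families of near-identical genes may be split among copies, so single values are uncertain. Without Control(D) replicate 2 or 3 the class I list had 7 rises. The GTPase list had no fall without Control(D) replicate 1 or 2 and 2 falls without Ccnd1-Ikk2ca replicate 6.

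Among the interferon-stimulated genes the sensors of the Ifi200 family stood out in size. Ifi211 stood at 158 to 261 CPM (median 216) in Ccnd1-Ikk2ca, against 18.8, 12.1, 20.8 and 20.5 CPM in Control(D) (3.53 ± 0.47, adjusted p = 0.00023). Ifi204, another member, stood at 18 to 43.5 CPM (median 28.5) in Ccnd1-Ikk2ca, against 0.349, 1.1996, 1.61 and 2.03 CPM in Control(D) (4.47 ± 0.92). Zbp1, a sensor of left-handed nucleic acid, stood at 55.7 to 87.6 CPM (median 76.04) in Ccnd1-Ikk2ca, against 35.02, 29.1, 39.8 and 33.5 CPM in Control(D) (1.10 ± 0.23). All 3 were higher in every double transgenic library. The list held 3 to 5 rises without Ccnd1-Ikk2ca replicate 2, 5 or 6 or Control(D) replicate 1, 2 or 4. Its fall, of the factor Irf7, was lost without Ccnd1-Ikk2ca replicate 2, 3, 4, 5 or 6 or Control(D) replicate 2, 3 or 4.

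Genes of the ribosome and of the respiratory chain rose together, by small amounts. Of 79 cytosolic ribosomal protein genes 56 rose and none fell (median 0.67). Of 62 nuclear-encoded subunits of oxidative phosphorylation 31 rose and none fell (median 0.45), whereas of the 13 subunits encoded in the mitochondrial genome none passed the edgeR test in either direction (median 0.0084); at an unadjusted p under 0.05 there was 1 lower, and DESeq2 called none. Rpl24 stood at 126 to 206 CPM (median 134) in Ccnd1-Ikk2ca, against 73.8, 56.01, 84.8 and 64.6 CPM in Control(D) (1.08 ± 0.16, adjusted p = 0.000328). Rps18 stood at 166 to 287 CPM (median 182) in Ccnd1-Ikk2ca and at 111, 88.3, 103 and 117 CPM in Control(D) (0.95 ± 0.17). Rpl41 (0.81 ± 0.14) and Rps15 (0.82 ± 0.15) also had no double transgenic library below a control. Of the respiratory chain, the iron-sulfur subunit Uqcrfs1 of complex III stood at 68.02 to 86.5 CPM (median 81.5) in Ccnd1-Ikk2ca, against 38.5, 55.9, 45.1 and 45.7 CPM in Control(D) (0.76 ± 0.14). Cox5b of complex IV stood at 42.7 to 69.3 CPM (median 59.3) in Ccnd1-Ikk2ca, against 34.7, 33.5, 36.6 and 37.1 CPM in Control(D) (0.68 ± 0.13). Uqcrb and Ndufa1 rose by 0.93 ± 0.19 and 0.93 ± 0.20, again without overlap. The mitochondrially encoded mt-Nd2 stood at 38.2 to 82.04 CPM (median 51.1) in Ccnd1-Ikk2ca, overlapping the 64.8, 96.8, 86.5 and 59.1 CPM of Control(D) (log2 fold change -0.45 ± 0.21, adjusted p = 0.175). Ribosomal genes have many processed copies in the genome among which reads can be split. The counts rested on single libraries: without Control(D) replicate 2 the ribosomal list had 33 rises, and the respiratory list had 10, against 15 without Control(D) replicate 1 and 19 without Ccnd1-Ikk2ca replicate 3. Of 32 subunits of the constitutive proteasome 7 rose and none fell, of which none was left without Control(D) replicate 1, 1 without Control(D) replicate 2 and 3 without Control(D) replicate 3, and 4 and 2 without Ccnd1-Ikk2ca replicates 2 and 6.

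**Figure D2:**
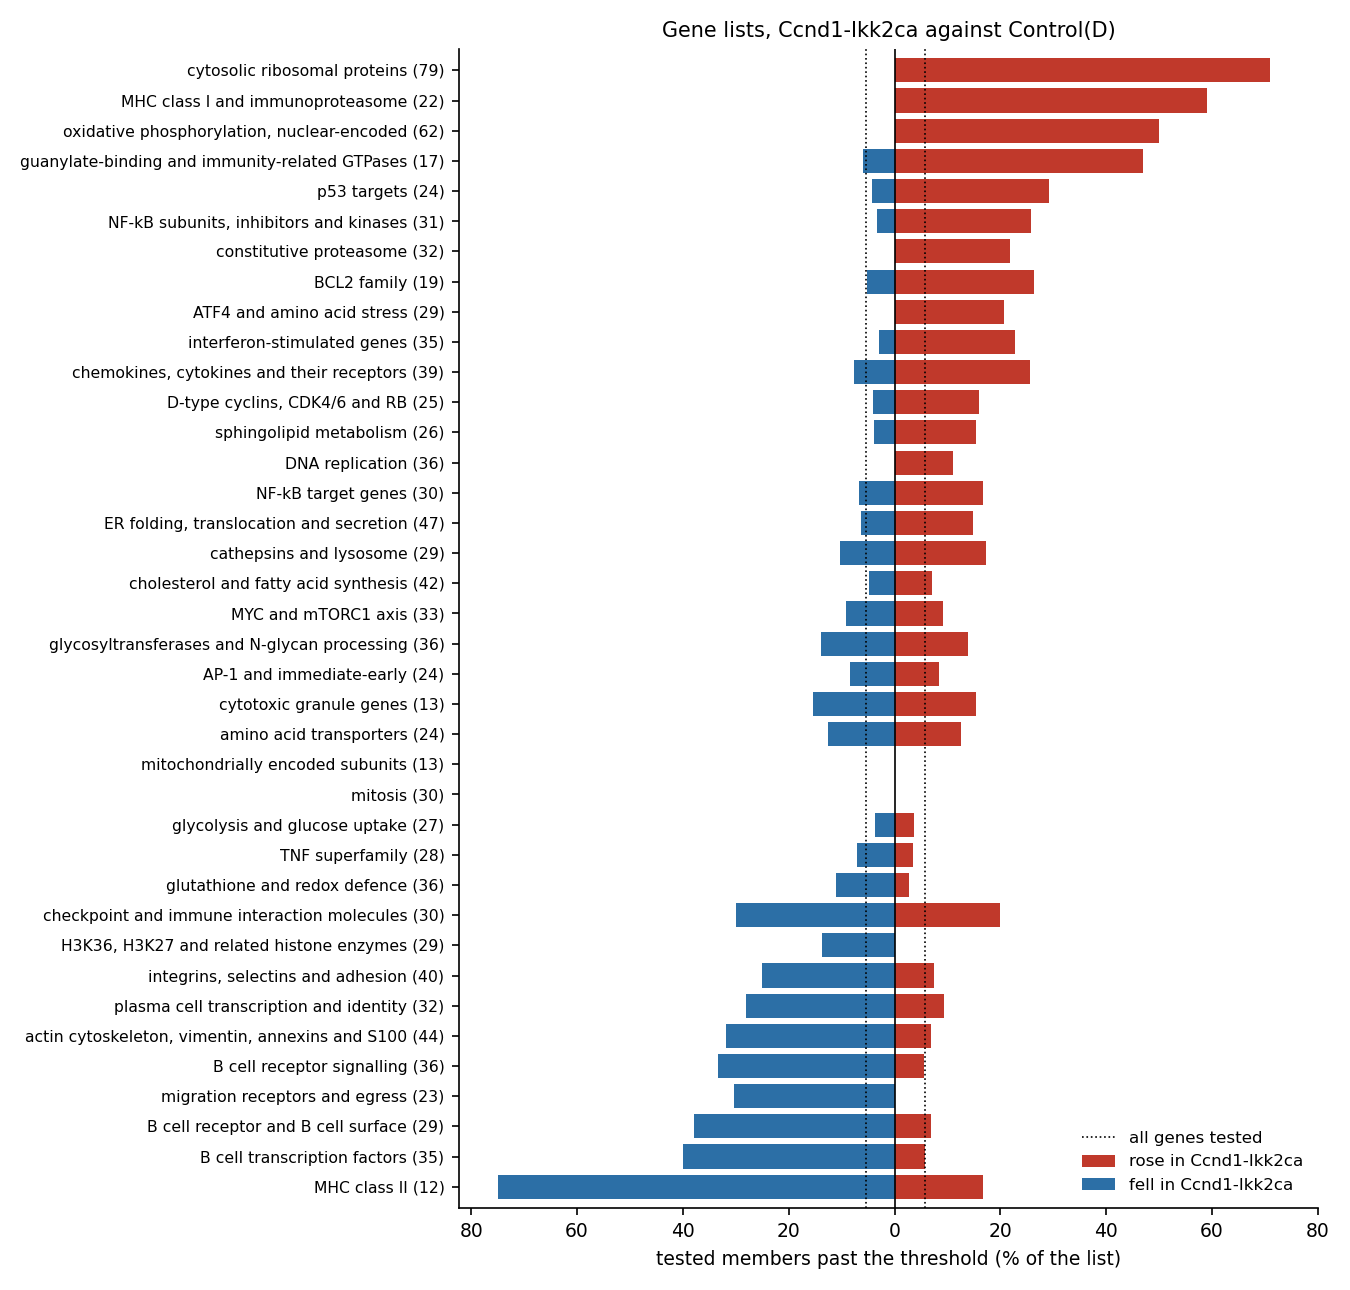
Percent of the tested members of each pathway list with at least 10 tested genes, the list of 12 genes drawn from earlier results left out, that rose and that fell in Ccnd1-Ikk2ca against Control(D); the dotted lines give the shares over all tested genes, 5.83% and 5.32%. Of the lists shown, ribosomal proteins, class I genes, respiratory subunits and guanylate-binding GTPases lie furthest to the risen side, and MHC class II, B cell factors, B cell surface genes and signalling genes furthest to the fallen side.

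The cell cycle genes moved little outside the D-type cyclins and their inhibitors. Of 30 mitosis genes none rose and none fell in the edgeR test (median 0.18); 2 were higher at an unadjusted p under 0.05, and DESeq2 called none. Of 36 DNA replication genes 4 rose, but with any 1 of the 10 libraries left out 0 to 2 did. Among 25 D-type cyclins, CDK4/6 partners and RB family genes 4 rose (the transgene Ccnd1 itself, Ccnd2, Cdkn1a and Cdkn2c) and E2f4 fell. Without Ccnd1-Ikk2ca replicate 1, 2, 3, 4 or 5 or Control(D) replicate 3 or 4 that fall was lost. Cdkn1a, which encodes the kinase inhibitor p21, stood at 27.4 to 57.2 CPM (median 46.9) in Ccnd1-Ikk2ca, against 3.23, 1.96, 2.68 and 2.04 CPM in Control(D), a log2 fold change of 4.17 ± 0.48 (adjusted p = 5.18e-05). Cdkn2c, which encodes p18, an inhibitor of CDK4 and CDK6, stood at 11.2 to 22.2 CPM (median 19.6) in Ccnd1-Ikk2ca, against 9, 9.94, 8.76 and 8.55 CPM in Control(D) (1.03 ± 0.26, adjusted p = 0.0147). Both inhibitors were higher in all 6 double transgenic libraries than in any control. Ccnd2, which encodes cyclin D2, was more scattered, at 348 to 1124 CPM (median 768) in Ccnd1-Ikk2ca, against 141, 71.5, 77.4 and 107 CPM in Control(D) (2.94 ± 0.71). Its call was lost without Control(D) replicate 2 (adjusted p = 0.058) or 3 (0.0525).

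Of 24 p53 target genes 7 rose (Cdkn1a, Ccng1, Bax, Btg2, Zmat3, Sesn2 and Bbc3) and Mdm2, which encodes the ligase that degrades p53, fell. Their median log2 fold change was 0.76, against 0.021 over all genes. Ccng1, which encodes cyclin G1, stood at 100 to 143 CPM (median 109.6) in Ccnd1-Ikk2ca, against 54.1, 38.7, 36.8 and 53.3 CPM in Control(D) (1.31 ± 0.19, adjusted p = 0.000236). Bax, an executioner of apoptosis, stood at 33.3 to 51.8 CPM (median 45.02) in Ccnd1-Ikk2ca, against 26.3, 22.1, 30.4 and 24.98 CPM in Control(D) (0.77 ± 0.15). In the BCL2 family 5 of 19 tested genes rose and Bcl2a1b fell. Next to Bcl2l1 and Bax, Bcl2l11, which encodes the death activator BIM, stood at 22 to 39.3 CPM (median 31.7) in Ccnd1-Ikk2ca, against 5.78, 10.1, 1.56 and 7.47 CPM in Control(D) (2.34 ± 0.57). The 5 risen members held the survival genes Bcl2l1 and Mcl1 and the death genes Bax, Bcl2l11 and Bbc3. The fall of Mdm2 was lost without Ccnd1-Ikk2ca replicate 6 or Control(D) replicate 1, 2 or 3, and there were 2 falls in the p53 list without Ccnd1-Ikk2ca replicate 4. The BCL2 list had 3 rises without Ccnd1-Ikk2ca replicate 3 or 5 or Control(D) replicate 2, 3 or 4, no fall without Control(D) replicate 4 and 2 falls without Ccnd1-Ikk2ca replicate 1.

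Genes of the plasma cell programme itself fell more often than they rose. Of 32 genes of plasma cell transcription and identity 3 rose (Il6st, Il6ra and Ly6c2) and 9 fell, with a median of -0.41. The other 20 did not pass the test. Prdm1, Irf4 and Xbp1, which encode BLIMP1, IRF4 and XBP1, did not pass it either way. Jchain (chromosome 5, 88519809 to 88527891) encodes the chain that joins IgA and IgM into polymers and is among the most abundant messages of plasma cells. It stood at 4021 to 16104 CPM (median 8327) in Ccnd1-Ikk2ca, against 70914, 74508, 93594 and 49367 CPM in Control(D). Every double transgenic library lay below every control, a log2 fold change of -2.97 ± 0.47 (adjusted p = 0.00134). Mzb1, an endoplasmic reticulum chaperone of antibody assembly, stood at 141 to 475 CPM (median 193) in Ccnd1-Ikk2ca, against 890.5, 723, 808 and 687 CPM in Control(D) (-1.59 ± 0.29). Bhlha15, which encodes the secretory factor MIST1, stood at 69.3 to 98.5 CPM (median 83.4) in Ccnd1-Ikk2ca, against 146, 183, 159.8 and 171 CPM in Control(D) (-0.98 ± 0.15). Ccr10, a homing receptor of IgA plasma cells, stood at 1.57 to 5.495 CPM (median 3.14) in Ccnd1-Ikk2ca, against 66.3, 43.6, 71.03 and 23.4 CPM in Control(D) (-4.01 ± 0.59). All of these fell without overlap between the groups. Jchain and Bhlha15 lie on chromosome 5, whose genes were lower as a whole, and the part of the chromosome in their falls was not tested. The fall of Jchain went 2.36 log2 units beyond the median of that chromosome. In the other direction, Il6st, which encodes the shared signalling receptor gp130 through which IL-6 acts on plasma cells, stood at 55.3 to 74.1 CPM (median 64.05) in Ccnd1-Ikk2ca, against 20.4, 19.3, 28.4 and 24.5 CPM in Control(D) (1.49 ± 0.26, adjusted p = 0.00159). In RNA from pooled cells, fewer cells of a type and less RNA per cell cannot be told apart. The share of all reads from immunoglobulin genes was 61.5% ± 2.57 in Ccnd1-Ikk2ca (SD, n = 6) and 63.4% ± 0.825 in Control(D) (SD, n = 4), a difference of -1.91 percentage points (two-sided exact permutation p = 0.219).

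Genes of the B cell programme also fell more often than they rose. Of 35 B cell transcription factors 2 rose (Id2 and Ikzf2) and 14 fell (median -1.16); of 29 genes of the B cell receptor and B cell surface 2 rose (Ly6d and Cd52) and 11 fell (median -1.27); of 36 genes of B cell receptor signalling 2 rose (Vav2 and Rasgrp3) and 12 fell (median -0.58). Ets1, a factor that restrains plasma cell formation, stood at 3.63 to 9.696 CPM (median 4.77) in Ccnd1-Ikk2ca, against 43.2, 38.2, 44.9 and 44.6 CPM in Control(D) (-2.93 ± 0.33, adjusted p = 2.93e-05). Mef2c, which acts downstream of the B cell receptor, stood at 58.9 to 99.04 CPM (median 88.4) in Ccnd1-Ikk2ca, against 165, 162, 159 and 149.7 CPM in Control(D) (-0.92 ± 0.14). Klf2, which sets lymphocyte homing and quiescence, stood at 0 to 0.261 CPM (median 0.107) in Ccnd1-Ikk2ca, against 9.17, 8.602, 7.75 and 11.7 CPM in Control(D) (-6.26 ± 1.03). The Klf2 level in Ccnd1-Ikk2ca came from 56 reads in all 6 libraries together. None of these groups overlapped.

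Cd79a, which carries the signal of the antigen receptor into the cell, stood at 58.8 to 126 CPM (median 76.9) in Ccnd1-Ikk2ca, against 653, 593, 692 and 423 CPM in Control(D), a log2 fold change of -2.86 ± 0.24 (adjusted p = 2.97e-06). Fcgr2b, the inhibitory Fc receptor of B and plasma cells, stood at 2.88 to 11.7 CPM (median 6.71) in Ccnd1-Ikk2ca, against 72.6, 62.8, 45.4 and 56.2 CPM in Control(D) (-3.07 ± 0.40). Fcrla (-1.27 ± 0.21) and Vpreb3 (-2.25 ± 0.39) fell too. Of the signalling genes, the kinase Lyn stood at 5.84 to 13.4 CPM (median 8.79) in Ccnd1-Ikk2ca, against 43.4, 43.8, 44.1 and 48.8 CPM in Control(D) (-2.32 ± 0.25, adjusted p = 2.68e-05). Prkcb, the protein kinase C of the receptor's NF-kB arm, was almost undetected, with 0 to 0.0844 CPM (median 0) in Ccnd1-Ikk2ca from 7 reads in all, against 5.45, 6.598, 6.803 and 5.92 CPM in Control(D). Its log2 fold change was -8.47 ± 0.95, and -10.45 without Ccnd1-Ikk2ca replicate 3. Itpr1, a calcium channel of the endoplasmic reticulum, stood at 0.303 to 3.51 CPM (median 1.15) in Ccnd1-Ikk2ca, against 24.5, 32.6, 32.9 and 18.1 CPM in Control(D) (-4.34 ± 0.58). The adaptor Dok3 stood at 21.8 to 54.98 CPM (median 28.2) in Ccnd1-Ikk2ca, against 92.8, 89.8, 91.7 and 84.7 CPM in Control(D) (-1.40 ± 0.22). All of these genes had every double transgenic library below every control. Without Control(D) replicate 1 or 4 the surface list had 7 falls. With 1 library left out, the rises numbered 0 to 2 among the factors and 1 to 3 among the signalling genes.

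Beside these falls, B cell markers were measured. Of 10 B cell markers 4 fell (Ms4a1, Pax5 and Blk among them), none rose and 6 did not pass the test, and 3 of the 10 had a log2 fold change above 0 (Fcer2a with 3.88, Ighd with 0.64 and Bank1 with 0.25). Their summed level was 179.8 to 281 CPM in Ccnd1-Ikk2ca, against 333 to 464 CPM in Control(D). Of these markers Cr2 was at 0 in all 6 double transgenic libraries. Ms4a1, which encodes CD20, stood at 13.8 to 40.6 CPM (median 31.2) in Ccnd1-Ikk2ca, against 109.6, 60.1, 82.8 and 91.3 CPM in Control(D). All 3 tested markers of B cell precursors fell, with a summed level of 8.62 to 34.4 CPM in Ccnd1-Ikk2ca, against 51.3 to 82.9 CPM in Control(D); Vpreb1 and Dntt were at 0 in Ccnd1-Ikk2ca, and Rag1 was at 0 in both groups. The part of sorted B lineage cells at other stages in the falls was not tested. With 1 library left out, 2 to 4 B cell markers and 1 or 2 precursor markers fell.

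MHC class II genes, which present antigen in B cells and are switched off on the way to the plasma cell, had the lowest median of the pathway lists (-2.93). Of 12 genes 9 fell, and Cd74 and Ctss rose. H2-Ab1 stood at 24.8 to 67.8 CPM (median 40.01) in Ccnd1-Ikk2ca, against 432, 257, 184 and 562 CPM in Control(D) (-3.11 ± 0.34, adjusted p = 2.93e-05). H2-Eb1 stood at 14.3 to 25.6 CPM (median 19.4) in Ccnd1-Ikk2ca, against 204, 124, 103 and 255 CPM in Control(D) (-3.13 ± 0.32). H2-Aa stood at 0.824 to 10.9 CPM (median 3.19) in Ccnd1-Ikk2ca, against 177, 80.6, 54.2 and 216 CPM in Control(D) (-5.01 ± 0.65). The controls themselves differed several-fold, with replicates 1 and 4 high in all 3 genes, yet no double transgenic library reached the lowest of them. H2-Oa, which tunes peptide loading, had 1 read in the 6 Ccnd1-Ikk2ca libraries together, against 8.35, 2.17, 0.414 and 12.5 CPM in Control(D). Cd74, the invariant chain that escorts class II and is also a receptor, went the other way, with 4370.3 to 9905 CPM (median 7255) in Ccnd1-Ikk2ca, against 3009, 2268, 2628 and 3548 CPM in Control(D) (1.36 ± 0.31, adjusted p = 0.0102). The rise of Ctss, a protease that trims the invariant chain, was lost without any 1 library except Ccnd1-Ikk2ca replicate 2, so that Cd74 was then the 1 rise in the list.

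Genes of cell shape, adhesion and migration fell more often than they rose. Of 23 migration and egress receptors and their regulators none rose and 7 fell (median -1.60); of 44 genes of the actin cytoskeleton, annexins and S100 proteins 3 rose (Myl12a, Myl6 and Actg1) and 14 fell (median -0.35); of 40 adhesion genes 3 rose and 10 fell (median -0.095). Coro1a, an actin-binding protein of leukocytes, stood at 10.7 to 23.3 CPM (median 21.5) in Ccnd1-Ikk2ca, against 95.8, 103, 59.4 and 100.4 CPM in Control(D) (-2.26 ± 0.31, adjusted p = 0.000196). Lsp1, another leukocyte actin binder, stood at 20.96 to 32.5 CPM (median 27.9) in Ccnd1-Ikk2ca, against 113, 96.9, 81.99 and 95.6 CPM in Control(D) (-1.84 ± 0.22). Myl12a, a regulatory light chain of nonmuscle myosin, rose instead, to 117 to 192 CPM (median 133) in Ccnd1-Ikk2ca, against 35.7, 30.3, 44.5 and 45.8 CPM in Control(D) (1.88 ± 0.21, adjusted p = 2.93e-05). The actin list thus moved in both directions, with no overlap in any of these genes. Arpc1b, a subunit of the branching complex Arp2/3, stood at 49.96 to 71.4 CPM (median 58.8) in Ccnd1-Ikk2ca, against 109, 92.9, 100.2 and 124 CPM in Control(D) (-0.85 ± 0.13); it is 1 of 3 fallen members of this list on chromosome 5, with Arpc3 and Actb.

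Among adhesion molecules, Cd48, a ligand of the SLAM receptor family, stood at 12.02 to 24.2 CPM (median 15.2) in Ccnd1-Ikk2ca, against 64.96, 53.5, 45.95 and 40.97 CPM in Control(D) (-1.65 ± 0.20). The proteoglycan Sdc4 stood at 31.1 to 59.5 CPM (median 47.3) in Ccnd1-Ikk2ca, against 164, 141, 206 and 98.2 CPM in Control(D) (-1.69 ± 0.29), and Alcam at 18.03 to 45.4 CPM (median 23.96) in Ccnd1-Ikk2ca, against 60.8, 86.9, 65.3 and 55.6 CPM in Control(D) (-1.33 ± 0.23). All 3 were lower in every double transgenic library. The chemokine receptor Cxcr3 stood at 0 to 0.183 CPM (median 0.0122) in Ccnd1-Ikk2ca, from 16 reads in all, against 15.6, 15.6, 2.04 and 17.9 CPM in Control(D); its log2 fold change was -8.41 ± 1.39, and -10.38 without Ccnd1-Ikk2ca replicate 3. Without Control(D) replicate 2 the adhesion list had 6 falls.

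Among 30 checkpoint and immune interaction molecules 6 rose and 9 fell. Cd274, which encodes the ligand PD-L1, stood at 26.5 to 58.3 CPM (median 36.3) in Ccnd1-Ikk2ca, against 14.1, 18.3, 13.8 and 13.1 CPM in Control(D) (1.42 ± 0.30, adjusted p = 0.00519). The inhibitory receptor Tigit stood at 0.266 to 1.65 CPM (median 0.525) in Ccnd1-Ikk2ca, against 41.8, 49.3, 26.2 and 14.2 CPM in Control(D) (-5.63 ± 0.80, adjusted p = 0.000578), and Slamf6 at 1.95 to 5.78 CPM (median 3.41) in Ccnd1-Ikk2ca, against 19.4, 26.3, 29.1 and 13.8 CPM in Control(D) (-2.61 ± 0.49). The 3 genes were separate between the groups. Of 39 chemokines, cytokines and their receptors 10 rose and 3 fell (Ccl9, Tgfbr2 and Il2rb); the rises included both chains of the type I interferon receptor. Tgfbr2, the receptor that binds TGF-beta, stood at 3.11 to 15.8 CPM (median 9.94) in Ccnd1-Ikk2ca, against 32.3, 25.4, 27.2 and 33.9 CPM in Control(D) (-1.68 ± 0.34). Without Control(D) replicate 1, 2, 3 or 4 the list had 5 or 6 rises, and without Ccnd1-Ikk2ca replicate 1 it had 5 falls.

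From several metabolic and secretory lists single members are given here, and the counts of those lists follow further on. Scd2, a desaturase that makes monounsaturated fatty acids, stood at 76.2 to 135 CPM (median 107) in Ccnd1-Ikk2ca, against 26.7, 25.04, 26.4 and 36 CPM in Control(D) (1.89 ± 0.29, adjusted p = 0.000578), and the cholesterol exporter Abcg1 at 53.4 to 123 CPM (median 82.8) in Ccnd1-Ikk2ca, against 16.8, 14.9, 19.9 and 30.5 CPM in Control(D) (2.06 ± 0.38). The lipid peroxidase Gpx4 stood at 154 to 254 CPM (median 188) in Ccnd1-Ikk2ca, against 94.1, 69.7, 91.7 and 103 CPM in Control(D) (1.11 ± 0.15), while the haem oxygenase Hmox1 stood at 3.09 to 9.72 CPM (median 4.77) in Ccnd1-Ikk2ca, against 30.02, 15.8, 24.3 and 13.3 CPM in Control(D) (-1.99 ± 0.36). These 4 genes were separate between the groups, 3 of them higher and Hmox1 lower. Odc1, the first enzyme of polyamine synthesis and a MYC target, stood at 137 to 818 CPM (median 534) in Ccnd1-Ikk2ca, against 68.2, 42.5, 76.96 and 71.4 CPM in Control(D) (2.95 ± 0.51). The amino acid transporter Slc7a8 stood at 20.8 to 103 CPM (median 48.1) in Ccnd1-Ikk2ca, against 7.22, 8.12, 4.35 and 6.99 CPM in Control(D) (2.95 ± 0.55), and the stress regulator Nupr1 at 9.12 to 20.6 CPM (median 12) in Ccnd1-Ikk2ca, against 2.19, 1.34, 2.35 and 1.72 CPM in Control(D) (2.75 ± 0.39). All 3 were higher in each double transgenic library than in any control.

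Enzymes of the sugar chains on secreted proteins moved both ways, with 5 rises and 5 falls among 36 tested. St6gal1, which caps N-glycans with sialic acid, stood at 37.6 to 117 CPM (median 71.2) in Ccnd1-Ikk2ca, against 454, 456, 452 and 377 CPM in Control(D) (-2.52 ± 0.31, adjusted p = 7.23e-05). The mannosidase Man1a stood at 65.01 to 91.96 CPM (median 74.6) in Ccnd1-Ikk2ca, against 322, 295, 287 and 351 CPM in Control(D) (-2.05 ± 0.30), and the matriglycan enzyme Large2 at 18.5 to 32.4 CPM (median 24.4) in Ccnd1-Ikk2ca, against 2.02, 1.17, 2.19 and 1.07 CPM in Control(D) (3.91 ± 0.49). St6gal1 and Man1a were thus lower and Large2 higher in every double transgenic library. Among 29 cathepsins and lysosomal genes 5 rose and 3 fell, the falls including the proteases Ctse (-2.67 ± 0.32) and Ctsh (-3.16 ± 0.43). Of 13 cytotoxic granule genes Lamp1 and Klrk1 rose and Prf1 and Cst7 fell. Prf1, which encodes perforin, stood at 0 to 0.352 CPM (median 0.0125) in Ccnd1-Ikk2ca, from 29 reads in all, against 30.7, 15.3, 31.8 and 12.8 CPM in Control(D).

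In the remaining lists the counts were small and depended on single libraries. They are given as rises and falls, with the range when 1 of the 10 libraries was left out. Over all tested genes 5.83% rose and 5.32% fell, and several of these lists lay near those shares. Glycolysis had 3.70% and 3.70%, cholesterol and fatty acid synthesis 7.14% and 4.76%, and the TNF superfamily 3.57% and 7.14%. Of 47 genes of endoplasmic reticulum folding and secretion 7 rose (2 to 9) and 3 fell (0 to 4). Of 29 ATF4 targets and amino acid stress genes 6 rose (3 to 7) and none fell (0 to 2). Their median log2 fold change was 0.46, and 24 of the 29 lay above 0. Of 24 amino acid transporters 3 rose (1 to 4) and 3 fell (0 to 3). Redox defence had 1 rise and 4 falls among 36 genes (2 to 5 falls), and cholesterol and fatty acid synthesis 3 rises (3 to 4) and 2 falls (0 to 3) among 42. Sphingolipid metabolism had 4 rises (1 to 4) and 1 fall (0 to 2) among 26 genes, and glycolysis 1 rise (1 to 2) and 1 fall (0 to 1) among 27. The TNF superfamily had 1 rise (0 to 2) and 2 falls (0 to 3) among 28 genes, the AP-1 and immediate-early genes 2 rises and 2 falls (0 to 2) among 24, and the MYC and mTORC1 axis 3 rises (1 to 4) and 3 falls (2 to 5), all 3 falls on chromosome 5, among 33. None of 29 histone enzymes rose and 4 fell (2 to 5). For the glycan enzymes the rises ranged from 3 to 5, for the lysosomal genes from 1 to 6 and for the cytotoxic genes from 0 to 3.

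Markers of other cells that a bone marrow sort could hold were detected at differing levels. Of 12 neutrophil markers 1 fell (Elane), with a summed level of 1.09 to 225 CPM in Ccnd1-Ikk2ca, against 56.9 to 544 CPM in Control(D); 5 fell without Ccnd1-Ikk2ca replicate 1. Of 11 tested macrophage markers 1 fell (Adgre1), with sums of 32.7 to 126 CPM in Ccnd1-Ikk2ca, against 107.5 to 175 CPM in Control(D). Of 8 tested T cell markers 1 fell (Cd3g), with sums of 1.99 to 6.35 CPM in Ccnd1-Ikk2ca, against 8.71 to 22.6 CPM in Control(D). Of 3 tested NK cell markers 1 rose (Klrk1), with sums of 9.24 to 46.0 CPM in Ccnd1-Ikk2ca, against 1.56 to 6.20 CPM in Control(D); the defining markers Ncr1 and Klrb1c were at 0 in all 10 libraries. The rise of Klrk1 was lost without Ccnd1-Ikk2ca replicate 3 or 4 or any control. None of the tested dendritic, erythroid, megakaryocyte, basophil or stromal markers (4, 5, 1, 1 and 4 genes) passed the edgeR test or DESeq2, and 1 stromal marker was lower at an unadjusted p under 0.05. The basophil and mast cell markers summed to 191 to 692 CPM in Ccnd1-Ikk2ca, against 156 to 467 CPM in Control(D); Mcpt8, Prss34, Cpa3 and Fcer1a were at 0 in Ccnd1-Ikk2ca, so that the sum there was of Prg2 (log2 fold change 0.40, adjusted p = 0.645). Of 10 plasma cell markers 4 fell and none rose, and without Control(D) replicate 1 or 3 there were 2 falls. The part of other cells in any change was not tested.

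Genes of chromosome 5 fell more often in the double transgenic cells than those of any other chromosome. Of the 974 genes tested on it 162 fell and 9 rose; the falls made up 16.6% of its genes, against 2.65% to 6.70% on each other chromosome, and 19.9% of all falls lay on this chromosome, which held 6.36% of the tested genes. Its falls were smaller than those elsewhere, with a median of -1.05 on the log2 scale against -1.64, and 73 of the 162 were under 2-fold. Over its 505 genes with a mean of at least 4 CPM, the median log2 ratio to the Control(D) mean was -0.68, -0.13, -0.75, -0.71, -0.73 and -0.40 in Ccnd1-Ikk2ca replicates 1 to 6, against 0.0041, 0.0056, 0.035 and 0.028 in Control(D) replicates 1 to 4. All 6 double transgenic libraries lay below all 4 controls, replicate 2 the least. On the other chromosomes the same medians stayed between -0.10 and 0.22 in Ccnd1-Ikk2ca. The difference was -0.58 (two-sided exact permutation p = 0.00952, of a smallest possible 0.00476), and 0.0635 after adjustment over the 20 chromosomes, so it did not pass the threshold; chromosomes 12 and 15 did (adjusted exact permutation p = 0.0476 each), each 0.11 higher in Ccnd1-Ikk2ca. With groups of unequal size and scattered values, this test can give more than its smallest p even where the groups are separate. Its p-values therefore do not rank the chromosomes by the size of their shift. Chromosome 5 was also picked out after the values were seen. Along the chromosome, in 8 of 9 windows of 10 Mb with at least 20 genes, all 6 double transgenic libraries lay below every control. The chromosome 5 medians were -0.032, -0.15, 0.013 and -0.13 in Ikk2ca(D) and 0.036, -0.0040, -0.13 and -0.26 in Ccnd1. On chromosome 15 they were 0.56, 0.28, 0.093 and 0.11 in Ikk2ca(D) and 0.0095, 0.059, 0.079 and 0.097 in Ccnd1. Ikk2ca(D) replicate 2 also had 0.23, 0.26 and 0.26 on chromosomes 6, 7 and 17. DNA was not measured. Without this chromosome 1537 genes passed the threshold, 884 up and 653 down.

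**Figure D3:**
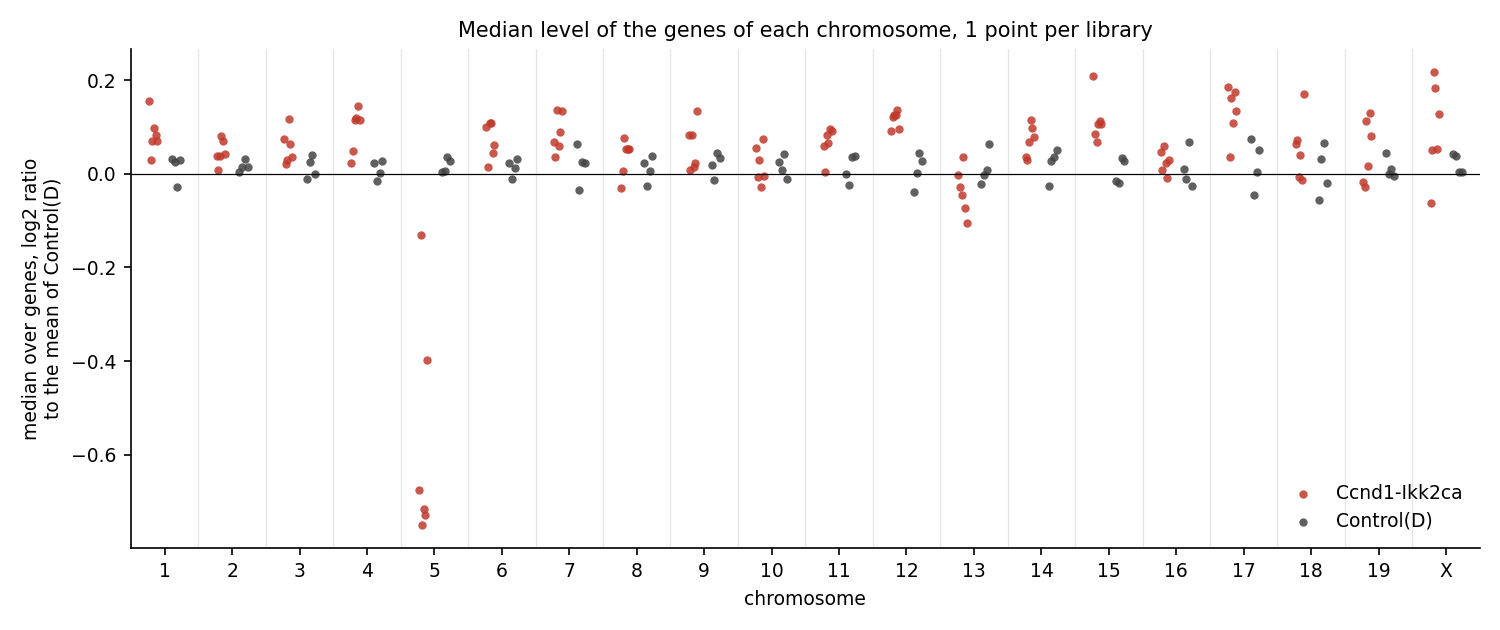
Median log2 ratio to the mean of Control(D) over the genes of each chromosome, 1 point per library, for Ccnd1-Ikk2ca and Control(D). On chromosome 5 the 6 Ccnd1-Ikk2ca libraries lie between -0.75 and -0.13 and the controls between 0.0041 and 0.035, while on all other chromosomes both groups lie between -0.10 and 0.22.

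In each double transgenic library the leading heavy and light chain variable genes held larger shares of reads than in any Control(D) library. The most used heavy chain variable gene held 35.0%, 50.02%, 34.5%, 23.5%, 72.9% and 35.7% of all heavy chain variable reads in Ccnd1-Ikk2ca replicates 1 to 6, against 5.96%, 11.5%, 7.15% and 7.57% in Control(D). The groups were separate, with means of 41.9% ± 17.3 (SD, n = 6) in Ccnd1-Ikk2ca and 8.04% ± 2.38 (SD, n = 4) in Control(D) (two-sided exact permutation p = 0.00476, the smallest this design allows). A different gene led in each double transgenic library, namely Ighv3-6, Ighv5-17, Ighv1-64, Ighv9-3, Ighv7-1 and Ighv1-19, whereas Ighv1-26 led in all 4 controls. The most used light chain variable gene held 33.1% to 55.9% (median 45.3%) in Ccnd1-Ikk2ca, against 8.63%, 12.4%, 8.86% and 12.2% in Control(D) (p = 0.00476 by the same exact test). The leading heavy chain gene held 11.6%, 10.5%, 30.8% and 13.99% in Control(M). It held 90.3%, 16.6%, 9.09% and 25.2% in Ikk2ca(D) and 5.42%, 6.73%, 5.72% and 13.04% in Ccnd1. The leading light chain gene held 12.4%, 25.2%, 22.4% and 17.1% in Control(M). It held 95.8%, 24.1%, 24.5% and 17.4% in Ikk2ca(D) and 9.06%, 10.9%, 10.4% and 23.2% in Ccnd1. Heavy chain shares above the lowest of Ccnd1-Ikk2ca, 23.5%, were thus found in Control(M) and Ikk2ca(D) too. Among heavy chain constant reads, those of Ighm, the constant region of IgM, made up 56.9% ± 22.5 in Ccnd1-Ikk2ca (SD, n = 6) and 22.6% ± 16.8 in Control(D) (SD, n = 4; two-sided exact permutation p = 0.0286), and those of Igha, of IgA, 23.2% ± 20.8 in Ccnd1-Ikk2ca and 56.6% ± 19.6 in Control(D) (exact p = 0.0429). These 5 immunoglobulin shares were compared without adjustment for their number. The controls of the 2 cohorts differed in these constant regions. In Control(M) Ighm made up 64.6%, 62.2%, 80.3% and 72.4% of heavy chain constant reads, and Igha 24.0%, 17.0%, 5.20% and 14.5%. A high IgM share was thus not particular to the double transgenic cells. In the test over all genes 3 immunoglobulin variable genes were among the 893 rises and 35 among the 815 falls. Reads cannot always be assigned among near-identical variable genes, so the named genes are those to which Salmon gave most reads.

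**Figure D4:**
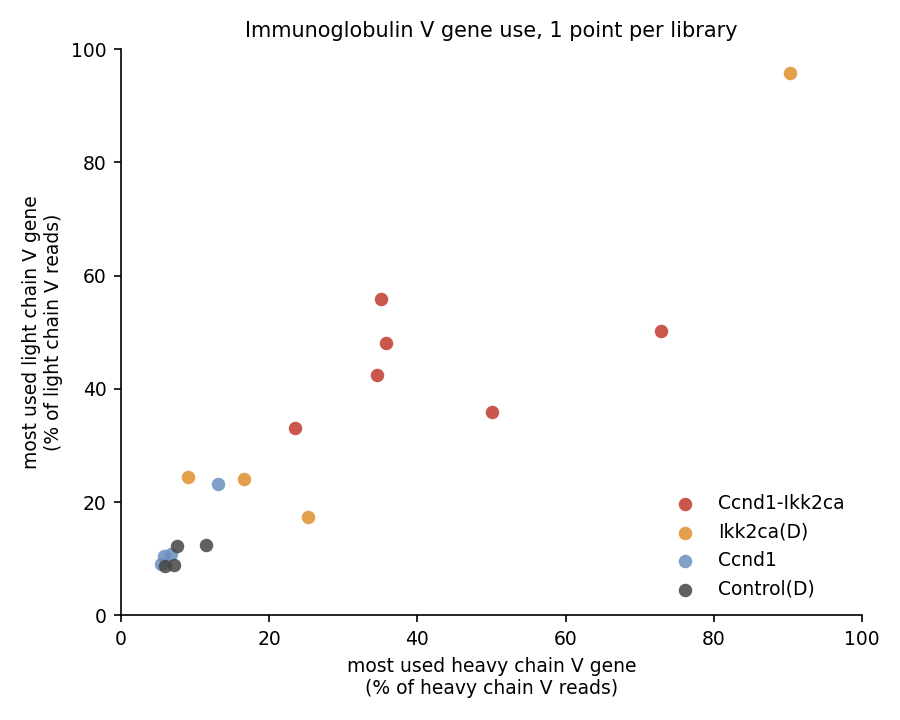
Share of the most used heavy chain variable gene (x, percent of heavy chain variable reads) and light chain variable gene (y, percent of light chain variable reads) in each library of 4 groups, 1 point per library. The 6 Ccnd1-Ikk2ca libraries lie at 23.5% to 72.9% and 33.1% to 55.9%, the 4 Control(D) libraries at 5.96% to 11.5% and 8.63% to 12.4%, and 1 Ikk2ca(D) library at 90.3% and 95.8%.

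The groups of the same cohort with 1 transgene each were set beside the double transgenic cells. They share the Control(D) libraries with the comparison above, so their values are set side by side with no test of agreement. Against Control(D), Ikk2ca(D) had 61 rises (0.398% of the genes tested) and 6 falls (0.0392%), 0.437% in all. Ccnd1 alone had 1 rise, of Ccnd1 itself, and no fall (0.00653%). An unadjusted p under 0.05 was found for 2045 genes in Ikk2ca(D) and for 963 in Ccnd1. Each of these groups held 4 libraries, against 6 of Ccnd1-Ikk2ca. Over the 893 genes that rose in Ccnd1-Ikk2ca the median log2 fold change against Control(D) was 1.16 in Ccnd1-Ikk2ca, 0.76 in Ikk2ca(D) and 0.27 in Ccnd1. Over the 815 that fell it was -1.50, -0.65 and -0.23 in the same order of groups. These genes were chosen by their values in Ccnd1-Ikk2ca, which favours larger changes there. The order of the groups is therefore partly set by the choice. With Ikk2ca alone, 5 of the 31 NF-kB subunits, inhibitors and kinases (median log2 fold change 0.15), 1 of the 30 NF-kB targets (-0.093) and 1 of the 35 interferon-stimulated genes (0.19) rose against Control(D), so most members did not pass the test. Single members are set side by side as examples. Median levels of Tnfaip3 were 140.4 CPM in Ccnd1-Ikk2ca, 103 CPM in Ikk2ca(D), 25.2 CPM in Ccnd1 and 18.8 CPM in Control(D), and those of Icam1 were 194 CPM in Ccnd1-Ikk2ca, 118 CPM in Ikk2ca(D), 19.7 CPM in Ccnd1 and 24.3 CPM in Control(D). Cdkn1a was 46.9 CPM in Ccnd1-Ikk2ca, 27.1 CPM in Ikk2ca(D), 6.16 CPM in Ccnd1 and 2.36 CPM in Control(D), and Ifi211 was 216 CPM in Ccnd1-Ikk2ca, 133 CPM in Ikk2ca(D), 18.7 CPM in Ccnd1 and 19.7 CPM in Control(D). In all 4 genes the 2 groups with Ikk2ca lay far above the other two by their medians.

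Tested directly, Ccnd1-Ikk2ca differed from Ikk2ca(D) in 65 genes (0.424%), of which 8 were higher (0.0522%) and 57 lower (0.372%). Immunoglobulin genes made up 2 of the 65, and chromosome 5, which held 6.36% of the tested genes, made up 15. Of the 65, 61 were also called on the same side against Control(D), where 11.1% of all tested genes were called. Both comparisons use the same Ccnd1-Ikk2ca libraries and the same fit, so this overlap is no independent evidence. B cell receptor genes were among the lower ones. Cd79a stood at 58.8 to 126 CPM (median 76.9) in Ccnd1-Ikk2ca, against 469, 265, 358 and 288 CPM in Ikk2ca(D) (log2 fold change -2.08 ± 0.23, adjusted p = 0.000167). Lyn stood at 5.84 to 13.4 CPM (median 8.79) in Ccnd1-Ikk2ca, against 31.1, 18, 22.7 and 18.8 CPM in Ikk2ca(D) (-1.33 ± 0.25, adjusted p = 0.0299), and Itpr1 at 0.303 to 3.51 CPM (median 1.15) in Ccnd1-Ikk2ca, against 6.52, 5.59, 15.6 and 7.17 CPM in Ikk2ca(D) (-2.70 ± 0.55, adjusted p = 0.0444). Prkcb stood at 0 to 0.0844 CPM (median 0) in Ccnd1-Ikk2ca, against 1.47, 1.31, 3.42 and 8.72 CPM in Ikk2ca(D) (adjusted p = 0.000336). In these 4 genes every double transgenic library lay below every Ikk2ca(D) library. Jakmip1, a microtubule-associated protein on chromosome 5, was lower than in Ikk2ca(D) as well (-3.06 ± 0.43), as were the receptor Tgfbr2 (-1.63 ± 0.34), the mannosidase Man1a (-1.81 ± 0.30) and Arpc1b (-0.58 ± 0.13, adjusted p = 0.0481). Jchain was at 23499.8, 13771, 43014 and 33685 CPM in Ikk2ca(D), and its difference did not pass the test (-1.63 ± 0.45, adjusted p = 0.157); nor did that of Ccr10 (-2.67 ± 0.57, adjusted p = 0.0554).

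The number of genes in that comparison rested on single libraries. It was 15 to 21 without Ccnd1-Ikk2ca replicate 3, 4, 5 or 6, 120 without Ccnd1-Ikk2ca replicate 2, 31 without Ikk2ca(D) replicate 1 and 18 without Ikk2ca(D) replicate 3. It also moved where a library of another group in the same fit was left out, to 25 to 30 without any 1 Control(D) library and to 20 and 18 without Ccnd1 replicate 2 and 3. Ikk2ca(D) replicate 1 stood apart, with 90.3% of its heavy chain variable reads from Ighv11-2 and 95.8% of its light chain variable reads from Igkv14-126. Against Ccnd1 alone Ccnd1-Ikk2ca differed in 950 genes (6.2%), 430 higher (2.81%) and 520 lower (3.39%); the count was 410, 562 and 521 without Ccnd1 replicate 1, 2 and 3.

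**Figure D5:**
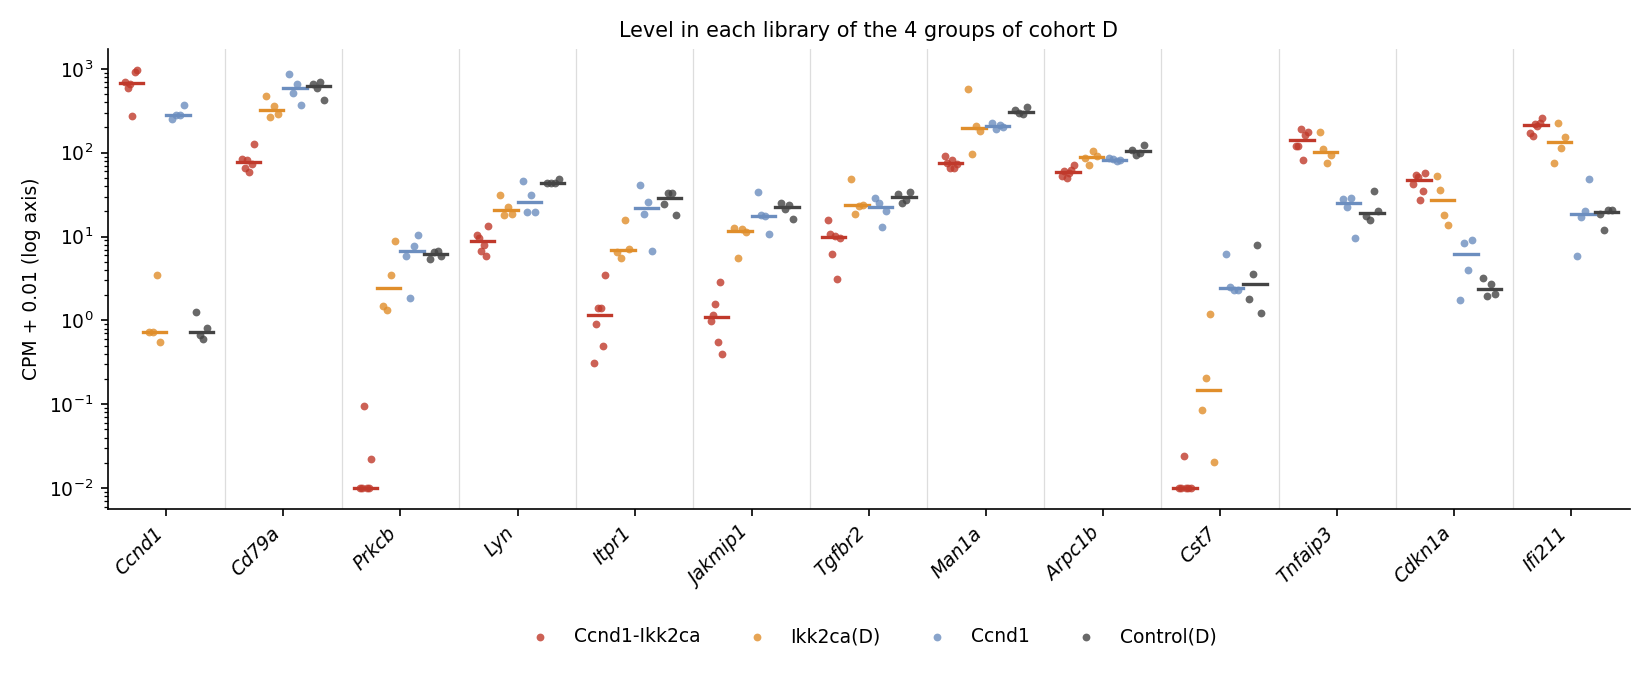
Levels of 13 genes in the libraries of Ccnd1-Ikk2ca, Ikk2ca(D), Ccnd1 and Control(D), as CPM plus 0.01 on a log axis; each point is a library and each bar a group median. Cd79a, Lyn and Itpr1 are lowest in Ccnd1-Ikk2ca, at medians of 76.9, 8.79 and 1.15 CPM, while Tnfaip3 and Ifi211 are high in both groups that carry Ikk2ca.

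The second cohort pairs Ikk2ca with MMSET, the product of Nsd2, in place of Ccnd1, with its own controls. The effect of both transgenes was compared between the cohorts in 1 fit of all 36 libraries, over 17116 genes. The cohorts differed in 30 genes (0.175%), 20 with a more positive and 10 with a more negative effect in the Ccnd1 cohort. The 2 transgenes were among them. Ccnd1 rose by 9.69 in Ccnd1-Ikk2ca over Control(D), with -0.17 in MMSET-Ikk2ca over Control(M), and Nsd2 had -1.11 in Ccnd1-Ikk2ca and 6.67 in MMSET-Ikk2ca (log2 fold changes). Cd79a fell in both cohorts, by 2.86 in Ccnd1-Ikk2ca over Control(D) and by 7.55 in MMSET-Ikk2ca over Control(M), a difference of 4.69 ± 0.68 (adjusted p = 0.00056). The actin regulator Fmnl1 averaged 3.88 CPM in Ccnd1-Ikk2ca, against 35.5 CPM in Control(D), and 0.00246 CPM in MMSET-Ikk2ca, against 17.5 CPM in Control(M). The interferon factor Irf7 had -0.84 in Ccnd1-Ikk2ca and 1.04 in MMSET-Ikk2ca, a difference of -1.87 ± 0.41 (adjusted p = 0.0391). Cdkn2c, which rose in the Ccnd1 cohort, had 1.03 in Ccnd1-Ikk2ca and -2.02 in MMSET-Ikk2ca (difference 3.06 ± 0.40, adjusted p = 6.47e-05). Without Control(D) replicate 2 or 3, Ccnd1-Ikk2ca replicate 3 or Control(M) replicate 2 the number of genes was 14 to 18. In the second cohort the chromosome 5 medians against Control(M) were -0.72, -0.70, -0.69, 0.0058, -0.37 and -0.53 in MMSET-Ikk2ca replicates 1 to 6. In Control(M) they were -0.0053, -0.033, 0.057 and 0.041. With 1 transgene they were -0.034, 0.038, -0.50 and 0.057 in MMSET and -0.18, -0.25, -0.13 and 0.094 in Ikk2ca(M). None of these medians was tested.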

How the data were processed

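RNA was measured in 36 libraries of 2000 sorted plasma cells each. Per the labels' protocols, polyadenylated RNA was reverse transcribed with template switching, amplified by PCR and tagged with Nextera XT; no molecular identifiers are described, so PCR copies stay in the counts. Per the submitters' processing notes, bcl2fastq 2.20.0.422, Salmon 1.3.0 and DESeq2 1.32.0 were used on GRCm38. The deposited tables give, per the file headers, expected counts that the authors estimated per transcript with Salmon, and TPM, which the authors' run scaled within each library. Other settings are not given in the sources used here.

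Transcripts were added up to 54203 genes by the mouse GENCODE release 21 (GRCm38), rounded to whole numbers and tested with edgeR 4.0.16 in R 4.3.3 (filterByExpr, TMM scaling, robust quasi-likelihood test). The fit held the 18 libraries of the cohort (15323 genes), and for the difference between cohorts all 36 (17116 genes). Adjusted p-values are Benjamini-Hochberg values, and the threshold was 0.05. Each SE was derived as the size of the log2 fold change over the root of its F statistic. Strand was not used, so reads of genes on opposite strands of 1 locus may be mixed. Immunoglobulin shares and chromosome medians, of log2(CPM + 0.5), were compared by exact permutation over libraries, two-sided, with a smallest possible p of 0.00476. No 2 of the 10 libraries held identical values. The tests were tried on simulated counts.

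The members of the comparison and the 40 pathway and 12 cell type lists were chosen with earlier results of these data known. Named genes are the targeted genes and sort markers, the 12 largest rises and 12 largest falls of genes whose average log2 CPM is 3 or more, the 10 most abundant called genes, the 4 members with the smallest p of each list with at least 3 calls (2 of other lists), and up to 6 genes per direction of the difference between cohorts at that level (5 qualified as more negative); the choice passed over models without a gene name, segments of antigen receptors, Xist and the Y chromosome; not all are printed, and list members named outside this rule were chosen after their values were seen. Alternatives were DESeq2 1.42.0, its size factors in edgeR, a fit without immunoglobulin genes, 1 without the low-count filter, only the 10 libraries, all 36 libraries, a replicate block, an adjusted p of 0.01, TPM for immunoglobulin shares and each library left out. Xist as a covariate was listed with them. Chromosome 5 left out and the settings of its medians were added after seeing the data. Python 3.11.15 with pandas 2.3.3, scipy 1.17.1 and matplotlib 3.10.9 was used for sums, permutations and plots.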

Additional observations from a re-analysis of the deposited data

Results flagged for a closer look

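In the 200 groups of values examined for a library far from the rest, 20 values were set apart by a gap that was large for the range of their group; chance flags about 1 in 20 groups. In Ccnd1-Ikk2ca the high values were Ccng1 in replicate 3 (143 CPM), Prkcb in replicate 3 (0.0844), Itpr1 in replicate 6 (3.51), H2-Aa in replicate 1 (10.9), H2-Oa in replicate 6 (0.0124), Alcam in replicate 5 (45.4), Cxcr3 in replicate 3 (0.183), Tigit in replicate 1 (1.65), Hmox1 in replicate 5 (9.72), Nupr1 in replicate 6 (20.6), Ncan in replicate 5 (456), Prf1 in replicate 3 (0.352), Ctse in replicate 2 (19.9) and Cst7 in replicate 3 (0.0141). In Control(D) the high values were Lyn in replicate 4 (48.8 CPM), Scd2 in replicate 4 (36) and Elf3 in replicate 4 (0.0479), and the low values Coro1a in replicate 3 (59.4), Cxcr3 in replicate 3 (2.04) and St6gal1 in replicate 4 (377). Ccnd1-Ikk2ca replicate 3 held the high value of 5 of these genes.

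The effect of both transgenes over their controls differed between the cohorts, by a test of the difference itself in edgeR, for the following genes named by rule. The difference of log2 fold changes, cohort of Ccnd1-Ikk2ca minus cohort of MMSET-Ikk2ca, was 9.86 for Ccnd1, 8.87 for Fmnl1, 6.61 for Nrp2, 6.50 for H2-Eb2, 4.69 for Cd79a and 4.01 for Sorcs2. It was -7.78 for Nsd2, -4.12 for Mpeg1, -2.24 for Napsa, -1.87 for Irf7 and -1.40 for Ticam1. Ccnd1 and Nsd2 are the transgenes that distinguish the cohorts. Napsa, an aspartic protease, had -1.52 in Ccnd1-Ikk2ca over Control(D) and 0.72 in MMSET-Ikk2ca over Control(M). Nrp2, a semaphorin receptor, had -0.18 in Ccnd1-Ikk2ca over Control(D) and -6.79 in MMSET-Ikk2ca over Control(M).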

How the results depend on the processing

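The count of 1708 genes in Ccnd1-Ikk2ca against Control(D) was 2536 with DESeq2 (1390 up, 1146 down), 1708 with DESeq2 size factors in edgeR, 1710 without immunoglobulin genes, 1657 with only the 10 libraries, 1632 with all 36, 1275 without a low-count filter, 1368 with Xist as a covariate and 594 at an adjusted p under 0.01. It ranged from 984 to 1844 with 1 library left out. The count was 14 to 41 for the difference between cohorts, 15 to 120 against Ikk2ca(D) and 410 to 1120 against Ccnd1. The 402 called members over all lists were 247 to 422, and of the 172 called named genes 129 to 166 passed; 118 passed in all 10 fits, and all 172 kept their direction. With 1 library left out the chromosome 5 difference was -0.67 to -0.55, that of the immunoglobulin share -2.53 to -1.22, of the heavy chain variable share 27.7 to 37.6 (30.4 on TPM, exact p = 0.00952) and of the light chain share 31.4 to 35.98. The values of Bst2, Itga2b and Nrp2, which had not passed the threshold, changed sign, with ranges of -0.14 to 0.031 for Bst2 (highest without Control(D) replicate 3), -1.78 to 1.17 for Itga2b (without Control(D) replicate 1) and -0.50 to 0.33 for Nrp2 (without Control(D) replicate 4). The cause was not tested, beyond the fewer samples.

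A replicate block needs numbers that pair libraries. Deviations of same-numbered libraries correlated at -0.00654 to 0.0300, so the numbers pair nothing here. With the block over replicates 1 to 4 the counts were 1030 against Control(D) (996 for the same libraries unblocked), 32 against Ikk2ca(D) and 557 against Ccnd1.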
